A study of Mus musculus with 3 samples.

Results

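The genes described here encode pumps that carry doxorubicin and related drugs out of cells, and enzymes that reduce them. They were Abcb1a, Abcb1b, Abcc1, Abcc4, Abcc5 and Abcg2 among the pumps, and Cbr1, Cbr3, Por and Xdh among the reducing enzymes. The members were chosen by name, for known export or reduction of anthracyclines, and every probe set that the platform's annotation table assigned to them was read. Of the 10 listed genes, 9 had such probe sets, 21 in all, of 45101 probe sets and 18194 named genes on the array. Por had no probe set named in that table and was not analysed here. Messenger RNA of B16, an established melanoma line from the mouse, was measured after 0, 2 and 4 h with 1 µg/ml doxorubicin, on 1 Affymetrix Mouse430_2 array for each time. The cells grew in DMEM with serum and antibiotics, no genetic change was named, and the labels say nothing of clones or of separate cultures. No untreated culture at 2 h or 4 h was analysed here, so the drug, time in culture and handling cannot be told apart.

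Doxorubicin, an anthracycline, binds between the bases of DNA and traps topoisomerase II on it. ATP-binding cassette (ABC) transporters use ATP to move drugs and conjugates out of the cell, and P-glycoprotein, encoded by Abcb1a and Abcb1b in the mouse, is the pump classically linked to multidrug resistance. Inside the cell, carbonyl reductases convert doxorubicin to its alcohol, doxorubicinol, while flavoproteins such as cytochrome P450 reductase and xanthine dehydrogenase can pass single electrons to its quinone ring, which yields a radical that reacts with oxygen.

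Values are probe set signals after each array was rescaled to a common 2% trimmed mean of 500. A signal under 100 was treated as a floor, with no order below it, and a probe set passed the expression filter if its log2 signals on the 3 arrays averaged no less than log2 of 200. Differences are log2 ratios, and a 2-fold difference, a log2 ratio of 1 in either direction, was used as a fixed mark. There were no replicates, so no test was possible and no difference could be set against a spread between cultures. The probe-level error given beside the ratios is the SD of ratios within genes that had several probe sets, at like signal. Spread between cultures or between arrays is not part of it. Signals of different probe sets differ in affinity and are not compared with each other.

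The median signal over all probe sets was 154, 136 and 126 at 0, 2 and 4 h, and 38.2% to 43.4% of probe sets had a signal of at least 200. The labels' description field speaks of macrophages from bone marrow, and an ET treatment also appears in the labels, so cell type markers were read. Of 10 pigment cell markers, 10, 9 and 9 had a signal of at least 200 at 0, 2 and 4 h, against 5, 4 and 4 of 10 macrophage markers. The summed signal was 207093, 226269 and 227656 for the pigment cell list and 3762, 4650 and 5227 for the macrophage list. The pigment sum hides falls over time in Sox10 (11710, 2640 and 892) and Mitf (6576, 2031 and 739). Mc1r (3976, 2200 and 1196) and Tyr (221, 170 and 142) fell as well. The other pigment markers were higher at 2 h and 4 h than at 0 h. Cd68, a lysosomal protein that other cells also express, made up most of the macrophage sum, with 1884, 3044 and 3699. Ptprc and Itgam, which define leukocytes and myeloid cells, stayed under the floor on all 3 arrays, at 49.5 to 66.8 and 19.8 to 63.0. Over the floor on every array were Csf1r, at 376 to 522, Lyz2, at 372 to 414, Adgre1, at 197 to 302, and Cd14, at 151 to 268. At least 1 and at most 2 markers of the fibroblast, lymphocyte and endothelial lists had a signal of at least 200 on any array. The part of other cell types in the results was not tested. The file headers record the 2 h and 4 h arrays as hybridised 1 and 94 min after the 0 h array. The fluidics modules were 3, 4 and 1 at 0, 2 and 4 h, so the module cannot be told apart from the time in any comparison. For the 4 h array, the later run cannot be told apart from the time either.

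Of the 9 genes with probe sets, 5 passed the filter, namely the pumps Abcb1b, Abcc1, Abcc4 and Abcc5 and the reductase Cbr1. None of these 5 was 2-fold lower or higher at 2 h or at 4 h. Of the 9723 genes that passed, the share past the mark at 2 h against 0 h was 5.69% on the lower side and 1.41% on the higher side, and at 4 h against 0 h it was 14.4% and 2.32%. At 4 h against 2 h these shares were 5.41% and 0.843%, and again none of the 5 reached the mark. With so few members, a count of 0 lies close to the share over all genes and does not set the members apart. Their median log2 ratio was 0.12 at 2 h and 0.16 at 4 h, beside -0.01 and -0.07 over all genes. With arrays scaled to the hybridization spike-ins instead, the members' median was -0.09 and -0.17, beside -0.22 and -0.38 over all genes. The comparisons at 2 h and 4 h share the 0 h array. In bulk RNA, fewer cells expressing a gene and less of its RNA per cell cannot be told apart.

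**Figure D1:**
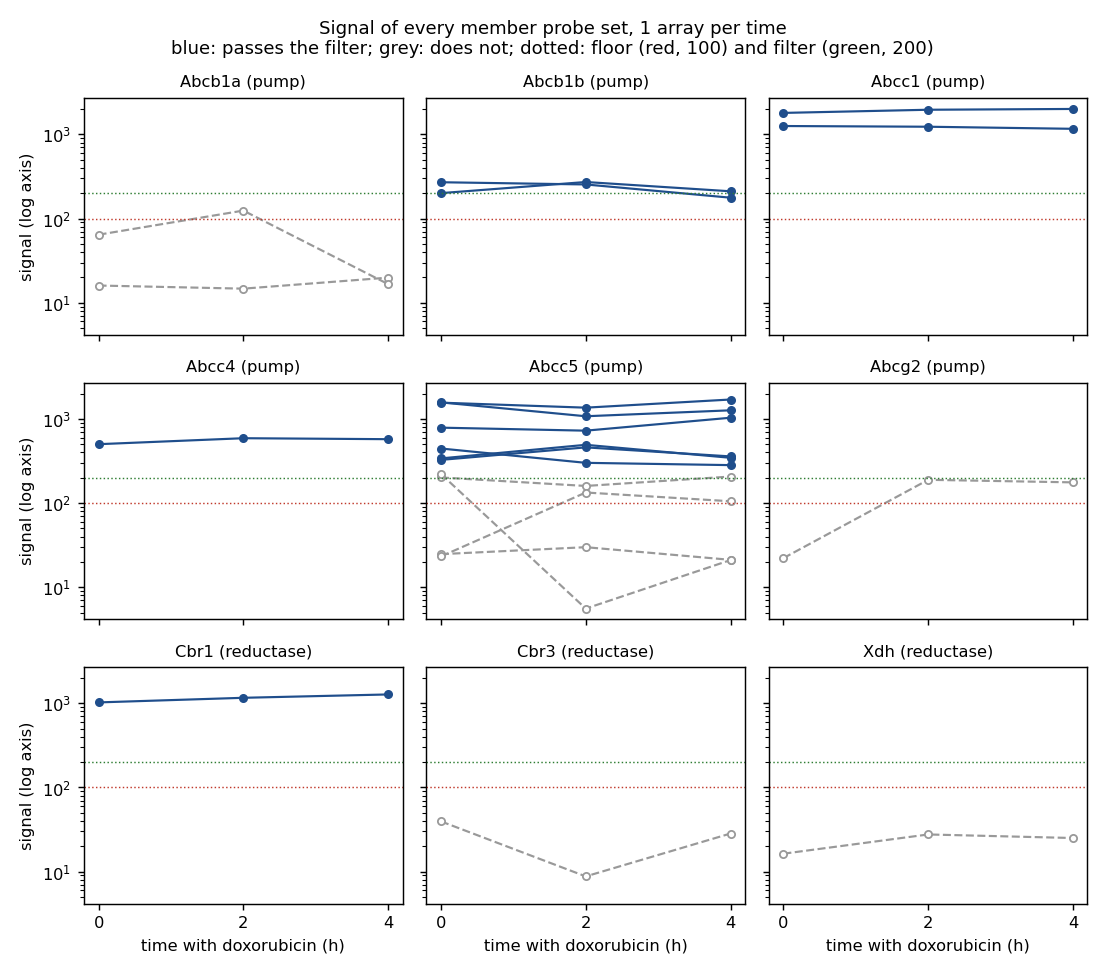
Signal of each member probe set (log axis) against time with doxorubicin in hours, 1 panel per gene and 1 point per array, with blue lines for probe sets that passed the filter, grey dashed lines for the others, and dotted lines at the floor of 100 and the filter of 200. Both Abcc1 probe sets stay between 1166 and 2007, and the Cbr3 and Xdh probe sets stay under the floor on every array.

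Among the 21 probe sets, 13 were over the floor on all 3 arrays, 4 were under it on all 3, and 4 crossed it. A total of 12 passed the filter. Of these 12, 6 were above 0 and 6 below 0 at 2 h, in a range of log2 ratios from -0.57 to 0.54. At 4 h against 0 h, 8 were above 0 and 4 below 0, in a range from -0.66 to 0.39. The probe-level error exceeded the size of the ratio for all but 3 of the 12 at 2 h and all but 1 at 4 h. All of these exceptions were Abcc5 probe sets.

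**Figure D2:**
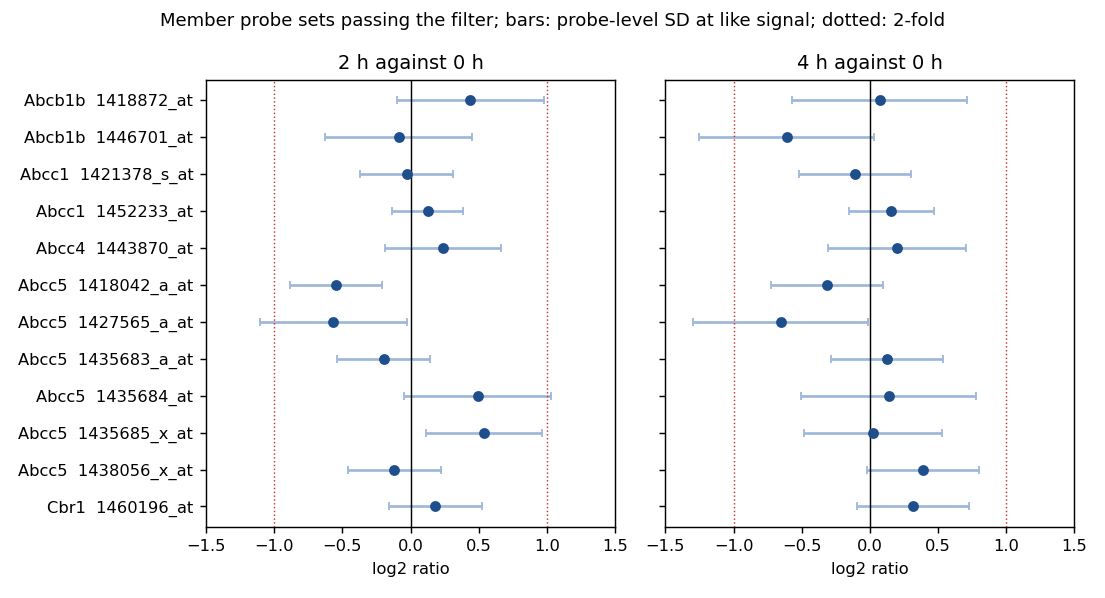
Log2 ratio of each member probe set that passed the filter, for 2 h (left) and 4 h (right) against 0 h, with bars of 1 probe-level SD at like signal and dotted lines at a 2-fold difference. All 12 points lie within the dotted lines, from -0.57 to 0.54 at 2 h and from -0.66 to 0.39 at 4 h.

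The P-glycoprotein genes lie next to each other on chromosome 5 with no protein-coding gene between them, and their probe sets differed in whether a signal was seen. The Abcb1b probe set 1446701_at had signals of 270.4, 254 and 177 at 0, 2 and 4 h, the lowest at 4 h. Its log2 ratio was -0.09 at 2 h and -0.61 at 4 h, with a probe-level error of 0.54 and 0.64, and 24.6% of all genes had a lower ratio at 4 h. The second Abcb1b probe set, 1418872_at, had signals of 201, 272 and 211, the highest at 2 h, and log2 ratios of 0.44 and 0.07. The pair thus had opposite signs against 0 h at both times, whereas both were lower at 4 h than at 2 h, by log2 ratios of -0.52 and -0.37. These sizes were within the probe-level error of 0.52. The 2 h sign of 1446701_at also depended on the scaling, with a ratio of 0.07 at equal medians and -0.30 with spike-in scaling, while its 4 h ratio stayed below 0, from -0.93 with spike-in scaling to -0.30 with equal medians. The mean over both probe sets was -0.27 at 4 h.

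Abcb1a, the other P-glycoprotein gene, had a probe set, 1419758_at, with signals from 14.7 to 19.9, under the floor on every array. Its second probe set, 1419759_at, had 64.4, 125 and 16.7, so that only the 2 h array was over the floor. This gives a bound of at least 1.25-fold higher at 2 h than at 0 h, at least 1.25-fold lower at 4 h than at 2 h, and no ratio between 4 h and 0 h. These values depended on the floor. With a floor of 50 the 2 h signal was 1.93-fold higher than at 0 h, and the 4 h signal was at least 1.29-fold lower than at 0 h and at least 2.49-fold lower than at 2 h, while a floor of 200 left no ratio. The protein products of the pair are close relatives, and cross-hybridisation between their probe sets was not tested.

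Probe sets of Abcb1a and Abcb1b may differ in affinity, so their signals do not rank these neighbours. The 250 bases before the start of each gene are shown as RefSeq gives them (GRCm38.p6, plus strand, chr5:8566841-8567090 for Abcb1a and chr5:8797897-8798146 for Abcb1b). Capitals mark any match, on either strand, to 5 motifs, namely the CCAAT box (CCAAT), the GC box (GGGCGG), the core of the antioxidant response element (TGACNNNGC), the core of the dioxin response element (GCGTG) and the AP-1 site (TGANTCA). Matches to different motifs may share bases.
Abcb1a: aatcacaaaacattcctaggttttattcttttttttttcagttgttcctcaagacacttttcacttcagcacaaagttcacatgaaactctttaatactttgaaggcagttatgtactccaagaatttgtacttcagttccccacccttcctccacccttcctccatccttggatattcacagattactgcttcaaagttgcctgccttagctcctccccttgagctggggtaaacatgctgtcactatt
Abcb1b: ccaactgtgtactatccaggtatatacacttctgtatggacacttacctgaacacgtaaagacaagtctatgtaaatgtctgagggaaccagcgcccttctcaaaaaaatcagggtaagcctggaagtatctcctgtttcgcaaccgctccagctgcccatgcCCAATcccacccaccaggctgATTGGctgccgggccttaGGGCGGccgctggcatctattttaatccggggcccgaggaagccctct
The Abcb1b window held 2 CCAAT matches, starting at -87 and -66 from the gene start, and 1 GC box at -48. The Abcb1a window held no match to any of the motifs, which says only that these letters are absent from these 250 bases. Over all 32851 windows of this length in the table, 33.8% held a CCAAT box, 32.7% a GC box, 10.2% the antioxidant core, 28.2% the dioxin core and 6.75% an AP-1 site. The G+C content was 52.8% for Abcb1b and 40.4% for Abcb1a, beside a median of 52.4% over all windows.

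Abcc1, also known as MRP1, exports glutathione conjugates and, together with glutathione, anthracyclines. Its probe set 1452233_at had signals of 1801, 1964 and 2007 at 0, 2 and 4 h. The log2 ratio was 0.12 at 2 h and 0.16 at 4 h, with a probe-level error of 0.26 and 0.31. The other probe set, 1421378_s_at, had 1259, 1234 and 1166 and ratios of -0.03 and -0.11. The 3 arrays thus lay within 1.11-fold of each other in the first probe set and within 1.08-fold in the second, the narrowest ranges among the members that passed. The ratio of 1452233_at was -0.09 at 2 h and -0.17 at 4 h with spike-in scaling, and 0.28 and 0.46 with equal medians. The median of all genes moved with each scaling, and relative to it the 4 h ratio was 0.22 in the main scaling, 0.21 with spike-ins, 0.22 with equal medians and 0.07 with quantile normalization. The main, spike-in and equal-median scalings differ only by a factor per array, which subtracting the median largely removes. Likeness among them is thus fixed beforehand, here and below, and tells nothing of robustness.

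Abcc4, also known as MRP4, exports organic anions and cyclic nucleotides, and was measured by 1 probe set, 1443870_at. Its signals were 500.2, 589 and 574, lowest at 0 h and nearly equal at 2 h and 4 h. The log2 ratio was 0.24 at 2 h and 0.20 at 4 h, within the probe-level error of 0.43 and 0.51. It was 0.02 and -0.12 with spike-in scaling. Relative to the median of all genes, the 4 h ratio was 0.26 in the main scaling and 0.25 with spike-ins, which are tied by construction. It was 0.46 with quantile normalization.

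Abcc5, also known as MRP5, exports cyclic nucleotides and nucleotide analogues, and 10 probe sets were assigned to it, of which 6 passed the filter. The brightest, 1435683_a_at, had signals of 1558, 1358 and 1698, the lowest at 2 h. Its log2 ratio against 0 h was -0.20 at 2 h and 0.12 at 4 h. The ratio of 4 h against 2 h was 0.32, just past the probe-level error of 0.317. The probe set 1418042_a_at had 1569, 1074 and 1264, with ratios of -0.55 at 2 h, past the error of 0.34, and -0.31 at 4 h. The probe set 1427565_a_at had 444, 300.3 and 282, with ratios of -0.57 at 2 h and -0.66 at 4 h, against errors of 0.54 and 0.64. These 3 probe sets were all lowest at 2 h or 4 h.

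The Abcc5 probe sets had no common order over time. The probe set 1435684_at, which the annotation table traces to the same source sequence as 1435683_a_at, had signals of 326, 458 and 358, highest at 2 h, with a log2 ratio of 0.49 at 2 h. Also from that sequence, 1435685_x_at had 339, 492 and 345 and a ratio of 0.54, past the error of 0.43. The last that passed, 1438056_x_at, had 786, 724 and 1031, with ratios of -0.12 at 2 h and 0.39 at 4 h. Over the 6, the mean log2 ratio was -0.07 ± 0.49 at 2 h and -0.05 ± 0.37 at 4 h (SD, n = 6 probe sets). Probe sets of this gene therefore differed in sign, and the gene had no common direction at either time. When suffixed probe sets (_a_at, _s_at and _x_at, which can match several transcripts) were left out, 1435684_at stood for the gene and the ratio at 2 h went from -0.20 to 0.49.

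Of the 4 Abcc5 probe sets that did not pass, 1418043_at had signals of 201, 160 and 206, and 1447384_at was under the floor throughout, at 24.7, 29.9 and 21.1. The probe set 1430882_at had 221 at 0 h and was under the floor at 2 h and 4 h, at 5.57 and 21.0, a bound of at least 2.21-fold lower at both times. The bound was at least 1.99-fold with equal medians and at least 1.98-fold with quantile normalization, at least 4.42-fold with a floor of 50 and at least 1.11-fold with a floor of 200. The probe set 1459782_x_at ran the other way, with 23.2, 133 and 105, at least 1.33-fold higher at 2 h and at least 1.05-fold at 4 h. With a floor of 50 these bounds were at least 2.67-fold and at least 2.10-fold, while a floor of 200 left no ratio. None of these passed the filter, so none entered the counts above.

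Abcg2, also known as the breast cancer resistance protein, exports mitoxantrone and several other drugs, and its 1 probe set, 1422906_at, crossed the floor. Its signals were 22.2, 189 and 176 in order of time, so that both later arrays were over the floor and the 0 h array under it. The gene was at least 1.89-fold higher at 2 h and at least 1.76-fold higher at 4 h than at 0 h. The bounds depended on the floor and became at least 3.78-fold and at least 3.52-fold with a floor of 50, while a floor of 200 left no ratio. With spike-in scaling they were at least 1.62-fold and at least 1.41-fold. The log2 ratio of 4 h against 2 h was -0.10. The probe set stayed under the filter of 200 on every array and rests on 1 dim signal per time.

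**Figure D3:**
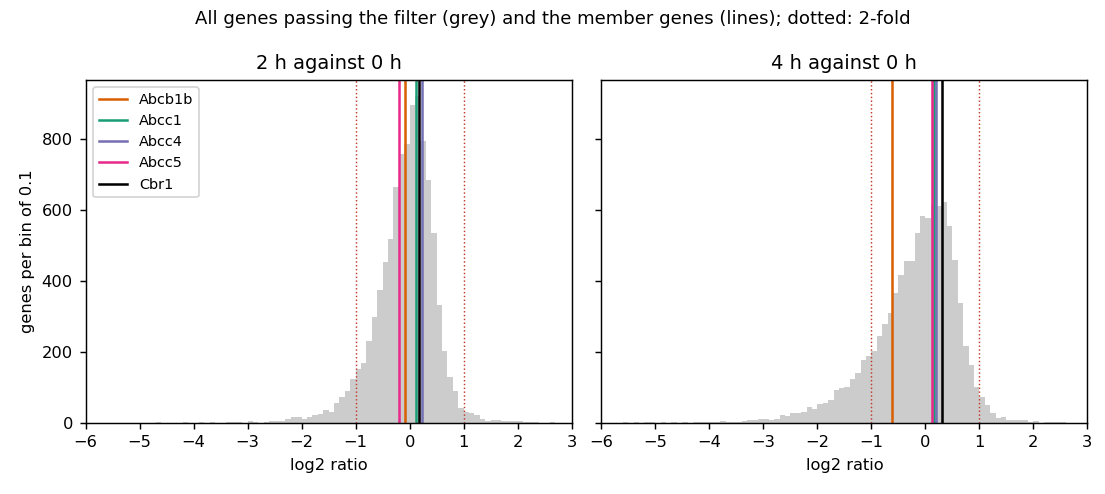
Number of genes per bin of log2 ratio over the 9723 genes that passed the filter (grey), for 2 h (left) and 4 h (right) against 0 h, with a coloured line for each of the 5 member genes and dotted lines at a 2-fold difference. All member lines lie within the dotted lines, and Abcb1b at 4 h, at -0.61, is the furthest from 0.

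Among the reducing enzymes, Cbr1, the main carbonyl reductase of anthracyclines in the cytosol, was the member with a clear signal. Its 1 probe set, 1460196_at, had signals of 1025, 1162 and 1274 at 0, 2 and 4 h, each array above the one before. The log2 ratio was 0.18 at 2 h and 0.31 at 4 h, or 1.24-fold, with a probe-level error of 0.34 and 0.41. At 4 h, 73.3% of all genes had a lower ratio. The 4 h ratio was 0.62 with equal medians and -0.0075 with spike-in scaling, where the median of all genes was 0.24 and -0.38. Relative to that median, Cbr1 stood at 0.38 in the main scaling, 0.38 with equal medians, 0.37 with spike-ins and 0.40 with quantile normalization, all within the probe-level error. The main, equal-median and spike-in values are tied by construction, as for Abcc1.

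Cbr3, a close relative of Cbr1 with its own spectrum of carbonyl substrates, had signals of 39.5, 8.78 and 28.4 in its 1 probe set, 1427912_at. Xdh, which encodes the purine-degrading enzyme xanthine dehydrogenase, had 16.3, 27.7 and 25.1 in its probe set 1451006_at. Both stayed under the floor on all 3 arrays, so no ratio is given. A signal under the floor gives no measured level, and does not show that the transcript is absent.

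Cbr1 and Cbr3 are neighbours on chromosome 16 with no protein-coding gene between them, and only the Cbr1 probe set had signals over the floor. Their probe sets may differ in affinity, so this does not rank the genes. The 250 bases before each start are shown as RefSeq gives them (GRCm38.p6, plus strand, chr16:93607587-93607836 for Cbr1 and chr16:93682969-93683218 for Cbr3), with capitals as above.
Cbr1: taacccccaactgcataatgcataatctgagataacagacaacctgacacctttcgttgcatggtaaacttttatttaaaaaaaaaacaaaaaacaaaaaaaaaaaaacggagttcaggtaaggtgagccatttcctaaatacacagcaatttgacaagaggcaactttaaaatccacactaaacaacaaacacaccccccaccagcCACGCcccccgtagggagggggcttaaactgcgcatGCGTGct
Cbr3: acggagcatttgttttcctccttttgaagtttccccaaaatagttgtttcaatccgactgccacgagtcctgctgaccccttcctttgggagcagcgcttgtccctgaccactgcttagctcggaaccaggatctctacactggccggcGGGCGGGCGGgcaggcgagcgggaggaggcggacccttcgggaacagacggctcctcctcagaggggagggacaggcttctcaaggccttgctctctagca
The Cbr1 window held 2 matches to the dioxin core, starting at -43 and -7, and none to the other motifs. The Cbr3 window held 2 overlapping GC box matches, at -101 and -97, and none to the others. The G+C content was 41.6% for Cbr1 and 59.6% for Cbr3. The shares of all windows that hold each motif are those given for the P-glycoprotein genes, and a match is a description of letters, not a site in use.

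Genes that act beside the members were read from 4 lists. Of 13 other transporters linked to drug traffic, 5 passed the filter, and none was 2-fold lower or higher at 2 h or 4 h. Of all genes, 5.69% and 14.4% were past the mark on the lower side at these times, and 1.41% and 2.32% on the higher side. With so few genes, a count of 0 does not set the list apart. The median log2 ratio of the 5 was 0.23 at 2 h and 0.10 at 4 h. Abcb8, an ABC transporter of mitochondria, was the lowest at 4 h, with signals of 2003, 1089 and 1164. Its log2 ratio was -0.88 at 2 h and -0.78 at 4 h, beyond the probe-level error of 0.34 and 0.41, and -1.10 at both times with spike-in scaling. Abcb4, a phospholipid transporter closely related to P-glycoprotein, had 731, 930.1 and 617, with ratios of 0.35 and -0.25. Its 4 h sign turned with equal medians (0.06). Mvp, the major vault protein, stood at 0.23 and 0.53, and the brighter probe set of the carnitine transporter Slc22a5 at 0.53 and 0.45. Slc22a5 had no settled direction, since the mean over its 2 probe sets was -0.15 ± 0.96 at 2 h and -0.14 ± 0.84 at 4 h (SD).

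Of 20 other quinone and carbonyl reducing enzymes, 15 passed, and none was 2-fold lower or higher at either time. The shares of all genes were again 5.69% and 14.4% on the lower side and 1.41% and 2.32% on the higher side. With so few genes, a count of 0 does not set this list apart. The median log2 ratio of the 15 was 0.26 at 2 h and 0.25 at 4 h, beside -0.01 and -0.07 over all genes. Relative to the median of all genes, the list stood at 0.27 and 0.32 in the main scaling, 0.23 and 0.32 with spike-ins, and 0.10 and 0.13 with quantile normalization. The main and spike-in values are tied by construction. The highest at 4 h were Ndufv1, the flavoprotein subunit of respiratory complex I, at 0.41 at 2 h and 0.63 at 4 h in its brightest probe set, and Cyb5r1, a cytochrome b5 reductase, at 0.57 and 0.62. The mean over the 3 Ndufv1 probe sets was 0.54 ± 0.11 and 0.71 ± 0.09 (SD). The signals of Cyb5r1 were 2576, 3833 and 3968, both later arrays above the 0 h array. The lowest were the aldo-keto reductases Akr1b8, at 0.13 and -0.46, and Akr1b10, at -0.39 and -0.35.

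Genes of peroxide and radical defence act on the products of quinone reduction, and 16 of 19 passed. None was 2-fold lower, and 1 was 2-fold higher at 4 h. Of all genes, 5.69% were past the mark on the lower side at 2 h and 14.4% at 4 h. On the higher side it was 1.41% and 2.32%. With so few genes, these counts do not set the list apart. The median log2 ratio was 0.45 at both times, beside -0.01 and -0.07 over all genes, and 15 of the 16 were above 0 at each. The share of all genes above 0 was not computed, so these counts have no baseline beyond the medians. They also rest on the brightest probe set of each gene. With the mean over probe sets, 14 of 16 were above 0 at each time. Probe sets of Sod1 and Txn1 differed widely, with an SD of 0.91 and 0.83 at 4 h. With spike-in scaling the list median was 0.24 at 2 h and 0.13 at 4 h, with 13 and 10 of 16 above 0. With quantile normalization it was 0.24 and 0.12, with 14 and 13 above 0. Relative to the median of all genes, the list stood at 0.52 at 4 h in the main scaling, 0.51 with spike-ins, 0.52 with equal medians and 0.07 with quantile normalization. The main, spike-in and equal-median values are tied by construction. Gstm1, a glutathione transferase, was the gene past 2-fold, with signals of 644, 1236 and 1394. In that probe set, the brightest, the log2 ratio was 0.94 at 2 h and 1.12 at 4 h. The mean over its 3 probe sets was 0.58 ± 0.37 and 1.003 ± 0.11 (SD). The brightest was at 0.79 at 4 h with spike-in scaling, which left 0 genes of the list past the mark, while equal medians put 3 past it. Its relative Gstm5 went from 725 at 0 h to 1204 and 1443, with log2 ratios of 0.73 and 0.99, and the annotation does not say how far probe sets of the gene family cross-hybridise. The lowest were Gclm and Gclc, the subunits of the enzyme that limits glutathione synthesis, at -0.06 and 0.10 at 4 h in their brighter probe sets. Each had 2 probe sets that differed at 4 h, with an SD of 0.47 for Gclm and 0.48 for Gclc.

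Regulators and partners of the pumps were the list with members furthest below 0 h. Of 21, 18 passed, with 2 genes past the mark on the lower side at 2 h, also 2 at 4 h, and none on the higher side. Over the alternatives the lower count was 1 to 3 at 2 h and 1 to 4 at 4 h, and equal medians put 1 gene, Msn, past the mark on the higher side at 4 h. The count of 4 came with spike-in scaling, where 22.3% of all genes were past the mark on the lower side. With equal medians the 4 h count was 1, where that share was 8.93%. In the main scaling 2 of 18 was 11.1% at both times, beside 5.69% and 14.4% of all genes. With so few genes, these counts do not set the list apart. The list median was -0.13 at 2 h and -0.20 at 4 h, beside -0.01 and -0.07 over all genes. Nfya, the DNA-binding subunit of the CCAAT-box factor NF-Y, had signals of 2755, 582 and 517. It was 4.74-fold lower at 2 h and 5.33-fold lower at 4 h. On the log2 scale this was -2.24 and -2.41, and the mean over its 2 probe sets was -2.08 ± 0.24 and -2.58 ± 0.24 (SD). The ratio at 4 h lay between -2.74 and -2.11 in the 3 other scalings. Its partner subunits, named after their values were seen, stood at 0.19 and 0.06 for Nfyb and at -0.08 and -0.23 for Nfyc.

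Foxo3, a forkhead transcription factor, had signals of 480.0, 262 and 223. In that probe set, the brighter one, the log2 ratio was -0.87 at 2 h and -1.10 at 4 h. The mean over its 2 probe sets was -1.26 ± 0.54 and -1.52 ± 0.59 (SD), past 2-fold at both times, and without suffixed probe sets it stood at -1.64 and -1.93. Its 4 h ratio was -0.80 with equal medians, -0.78 with quantile normalization and -0.96 with an offset of 50, short of 2-fold. Sp3, a GC-box factor named after its values were seen, was the other gene past 2-fold at 2 h, at -1.16, and stood at -0.61 at 4 h. The 2 h ratio was -0.96 with quantile normalization and -0.99 with an offset of 50, short of the mark. The highest were Msn, the membrane linker moesin, at 0.39 and 0.70, and Hif1a, the hypoxia-inducible factor subunit, at 0.22 and 0.67. With quantile normalization the 4 h ratio was 0.30 for Msn, within the probe-level error of 0.31, and 0.56 for Hif1a. With spike-in scaling it was 0.38 for Msn and 0.35 for Hif1a. Nfe2l2, which encodes the regulator Nrf2 and was named after its values were seen, went from 2911 at 0 h to 2129 and 1460. Its log2 ratios were -0.45 and -0.995 in the main scaling, just short of the mark at 4 h. Its ratios in the other scalings were not read, so its place beside the mark holds for the main scaling only.

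**Figure D4:**
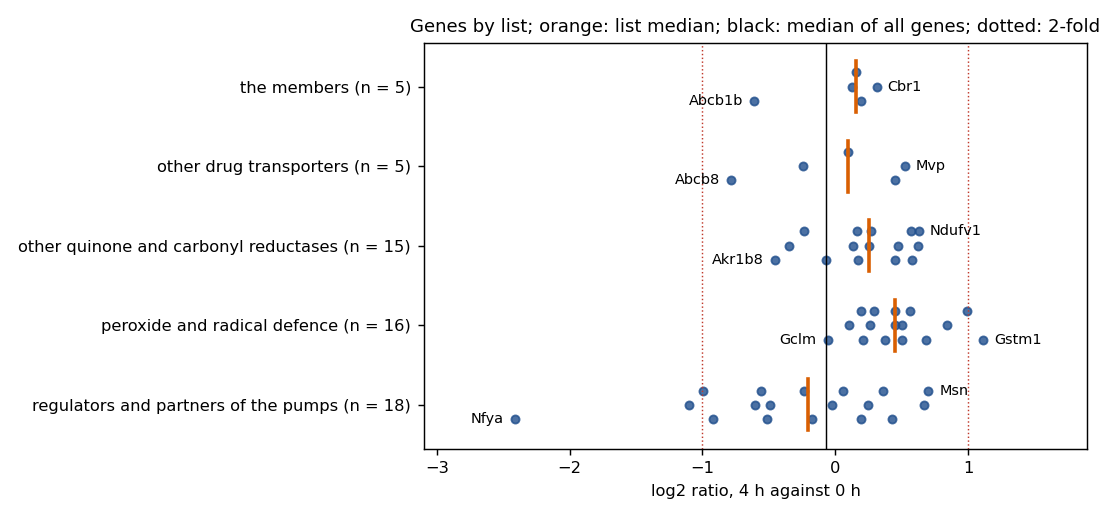
Log2 ratio of 4 h against 0 h for each gene that passed the filter, by list, with orange bars at list medians, a black line at the median of all genes and dotted lines at a 2-fold difference. The members lie between -0.61 and 0.31, Gstm1 lies past the upper line at 1.12, and Nfya lies past the lower line at -2.41.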

How the data were processed

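Total RNA from B16 cells was hybridised to 1 array per time point, and the titles gave each array's time. The deposited values are linear intensities per probe set, scaled by the authors to a 2% trimmed mean of 150.0 on each array. Per the submitters' processing notes GCOS 1.4 was used, with no word on how probes were summarised. Each array was rescaled, floored and filtered as stated above. The platform's annotation table names 1 gene for 34958 probe sets and several for 932, and 9211 probe sets are not listed and stay unnamed. Symbols were updated by Entrez ID to RefSeq (GRCm38.p6) for 34754 probe sets. The passing probe set of highest mean log2 signal stood for its gene, which left 9723 genes. The probe-level error came from 9967 passing probe sets of genes with at least 2, in 4 bins of signal. The number of arrays limits the precision. The counting was tested on simulated data with shifts past 2-fold planted in bright genes, which does not cover dim probe sets or smaller ratios.

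Members and lists were chosen with earlier results of these data known. All members were named, with the 2 highest and 2 lowest genes of each list at 4 h. Neighbours in pattern were to be named for members at least 2-fold different, and there were none. List entries with no probe set under their symbol alone were not analysed here. Calculations used Python 3.11.15 with pandas 2.3.3, numpy 2.4.6 and scipy 1.17.1, and plots matplotlib 3.10.9.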

Additional observations from a re-analysis of the deposited data

How the results depend on the processing

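The alternatives were equal medians, quantile normalization, spike-in scaling, floors of 50 and 200, an offset of 50, a filter of 400 or none, the mean over probe sets, and leaving out suffixed probe sets. The filter was read on signals floored at 100 throughout. In all 10, none of the members that passed the filter in that setting was 2-fold lower or higher at any of the 3 comparisons. Outside the filter, bounds of at least 2-fold at a floor of 50 are given above for Abcg2, Abcb1a and the Abcc5 probe sets 1430882_at and 1459782_x_at. These Abcc5 probe sets went in opposite directions, 1430882_at lower and 1459782_x_at higher. The bound of 1430882_at was past 2-fold at the main floor as well, at 2.21-fold. The members' median log2 ratio ranged from -0.09 to 0.28 at 2 h, from -0.17 to 0.46 at 4 h and from -0.07 to 0.18 at 4 h against 2 h. Of 147 single-gene values, 3 moved by more than the probe-level error, namely Abcc5 without suffixed probe sets at 2 h (0.49) and at 4 h against 2 h (-0.36), and Abcc1 with spike-in scaling at 4 h (-0.17). With a filter of 400 Abcb1b gave no value. The median of all genes moved to 0.14 and 0.24 at 2 h and 4 h with equal medians. Among all genes, 1396 lower and 226 higher at 4 h became 867 and 730 with equal medians, 991 and 431 with quantile normalization and 2041 and 50 with spike-ins. At 2 h, 553 and 137 became 368 and 229, 401 and 233, and 816 and 54. At 4 h against 2 h, 526 and 82 became 357 and 181, 377 and 141, and 623 and 40. The signal over background limits Abcb1a, Abcg2, Cbr3 and Xdh, which have bounds or no ratio. No paired analysis was possible because each time point had 1 array.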
